A study of Mus musculus with 6 samples.

Results

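The genes described here carry glucose into the β-cell, phosphorylate it, handle the pyruvate and lactate made from it and form the ATP-sensitive potassium (KATP) channel. They were taken from the deposited table by symbol, namely Slc2a2, Slc2a1, Hk1, G6pc2, Kcnj11, Abcc8, Ldha, Slc16a1 and Pcx, which are 9 of its 22298 genes. All 9 were among the 12747 genes that passed the filter on low counts and were tested. The samples were MIN6 cells, a mouse insulinoma line derived from mice whose β-cells express SV40 T antigen from an insulin promoter. The control group had 3 samples and the chronic epinephrine group 3. The study's scheme gives 100 nM epinephrine for 3 days and then 2 days without it, and the sources used here do not give the day on which RNA was taken for sequencing. No genotype, age or further agent separated the groups, and both were cultures of the same line between passages 32 and 40.

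Glucose enters rodent β-cells mainly through GLUT2, the product of Slc2a2, and is then phosphorylated. Its oxidation raises the ATP to ADP ratio, which closes the KATP channel, depolarises the membrane and lets calcium trigger insulin release. In healthy β-cells lactate dehydrogenase A, the monocarboxylate transporter MCT1 and low-Km hexokinases are kept low and are called disallowed genes, while pyruvate carboxylase is abundant and feeds pyruvate into the mitochondria.

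Sequencing depth was 15017065 to 18127171 expected counts per sample. Each of the 10 β-cell markers checked was expressed. Their summed level is given in normalized CPM, the counts scaled to the size of each library. It was 42446, 58784 and 62138 CPM in controls 1, 2 and 3 and 55041 to 57301 after epinephrine. The epinephrine samples lay above control 1 and below controls 2 and 3. That sum was carried mostly by Ins2 and Iapp. Of the 10, G6pc2 is described here, and Ins1 and Ucn3 fell, with log2 fold changes of -0.50 (edgeR FDR 0.0152) and -0.74 (edgeR FDR 0.00868). Of 10 exocrine pancreas markers, Prss1, Prss2, Cpa1, Pnlip and Cel had 0 counts in every sample, which allows up to 0.200 CPM in the shallowest library. The summed level of 22 hepatocyte markers was 35.5, 121 and 273 CPM in controls 1, 2 and 3 and 25.2 to 29.1 after epinephrine. The 6 α-cell markers summed to 1017 to 1548 CPM in controls and 1957 to 2157 after epinephrine. The 3 δ-cell markers summed to 6.79 to 10.6 CPM in controls and 5.22 to 5.69 after epinephrine, a sum made up mostly of Rbp4, while the δ-cell hormone gene Sst was at 0.667 ± 0.376 and 0.802 ± 0.0243 CPM (SD, n = 3). The 8 leukocyte markers summed to 0.685 to 1.81 and 2.52 to 3.79 CPM, a difference carried by Cd68, and the 8 fibroblast markers overlapped between groups. The part of these markers in the results was not tested. Control 1 stood apart from the other libraries. Pearson's r of its log2 CPM with the other controls, across genes, was 0.979 and 0.978, where controls 2 and 3 had 0.993 between them and the epinephrine samples 0.992 to 0.993. Results that rest on control 1 are given with and without it.

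Of the 9 genes, 3 changed after chronic epinephrine at a false discovery rate (FDR) under 0.05 in edgeR's quasi-likelihood test. Slc2a2 fell, and Slc2a1 and Slc16a1 rose. Among all genes tested 2.63% passed, 2.02% as higher and 0.612% as lower. An unadjusted p under 0.05 was reached by 4 of the 9, against 17.1% of all genes. The fold changes of the 9 genes lay between 0.591 and 1.53, so the differences were moderate in size. In CPM the groups did not overlap for 4 of them, namely the 3 genes above and Ldha, against 27.3% of all genes. In FPKM the groups overlapped for Ldha. Of these, Slc2a2 was the 1 gene lower in all epinephrine samples, where 13% of all genes were, and the others were higher, where 14.3% of all genes were.

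**Figure D1:**
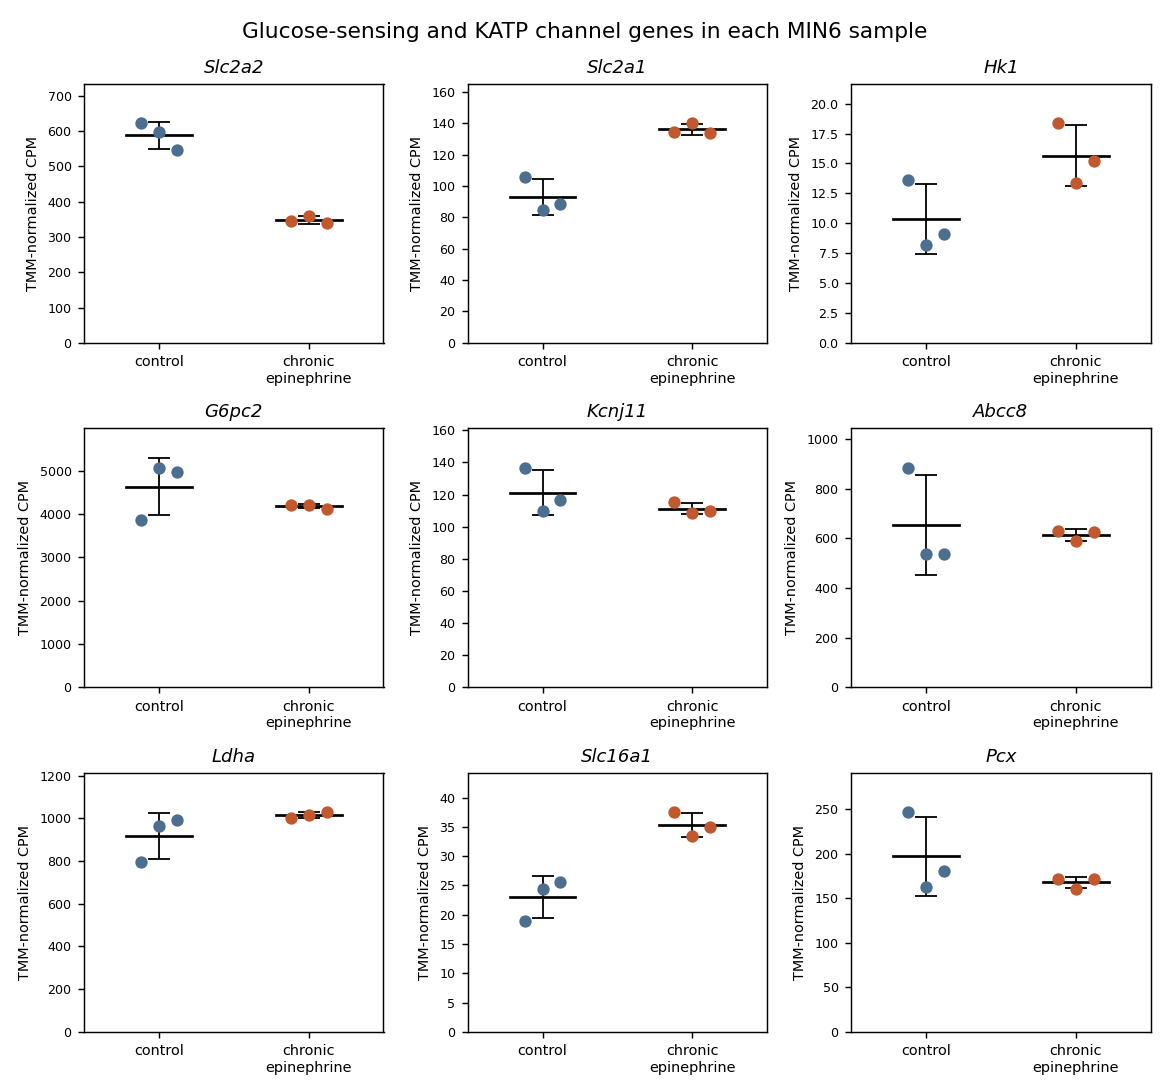
Level of each of the 9 genes as CPM after TMM normalization (vertical axis, from 0) in control and chronic epinephrine samples, with replicates 1 to 3 from left to right in each group, the mean as a bar and the SD as whiskers. Slc2a2 lay at 547 to 623 CPM in controls and 338 to 361 after epinephrine, and control 1 stood apart from the other controls for Abcc8, Pcx and Hk1.

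The levels of the genes were compared with each other as FPKM, which is scaled to transcript length. G6pc2 was by far the most abundant in controls at 2598 ± 337 FPKM (SD, n = 3), rank 18 of all 22298 genes. Ldha followed at 588 ± 63.8 and Abcc8 at 159 ± 50.7. Slc2a2 came next at 120 ± 9.60, and its range of 110 to 129 touched that of Abcc8. Pcx at 49.0 ± 11.8 and Kcnj11 at 45.9 ± 8.41 did not differ beyond their spread. Slc2a1 was lower at 31.3 ± 4.27 FPKM. Slc16a1 at 5.23 ± 0.721 and Hk1 at 2.85 ± 0.728 were the lowest, and their ranges did not overlap. After chronic epinephrine the order was the same for the first 4 genes, but Slc2a1 stood at 44.9 ± 0.726 FPKM, level with Kcnj11 at 42.5 ± 5.87 and above every sample of Pcx at 41.0 ± 1.93. The rank of Slc2a2 among all genes was 455 in controls and 993 after epinephrine, and that of Slc2a1 was 2401 and 1601.

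Slc2a2 encodes GLUT2, the high-capacity glucose transporter of rodent β-cells and hepatocytes. It (ENSMUSG00000027690) lies on chromosome 3 of GRCm38 from 28697903 to 28731359 on the plus strand. Its level was 623, 596 and 547 CPM in controls 1, 2 and 3, and 344, 361 and 338 CPM in chronic epinephrine 1, 2 and 3. Every epinephrine sample was lower than every control sample, and the gap between the groups was wider than the spread within either. Slc2a2 fell with a log2 fold change of -0.76 (SE 0.09, 95% interval -0.95 to -0.56, edgeR FDR 0.00434), a level of 0.591-fold, from 589 ± 38.6 to 348 ± 11.6 CPM (SD, n = 3). The exact permutation p, two-sided, was 0.1, the smallest that 3 samples against 3 allow. By p-value it ranked 41 among all genes tested. The FDR was 0.0577, 0.0522 and 0.0516 when chronic epinephrine 1, 2 or 3 was left out, with log2 fold changes of -0.75, -0.79 and -0.74. The hepatocyte marker Alb was at 0.194, 33.9 and 82.2 CPM in controls 1, 2 and 3 and at 0.296, 0.448 and 0.33 CPM after epinephrine, and its part in the Slc2a2 difference was not tested. In bulk RNA, fewer cells that express a gene and less RNA of it per cell cannot be told apart.

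Slc2a1 encodes GLUT1, the basal glucose transporter of most proliferating cells and of human β-cells. It (ENSMUSG00000028645) lies on chromosome 4 from 119108711 to 119137983 on the plus strand. Its level was 106, 84.5 and 88.8 CPM in the controls and 134, 140 and 134 CPM after epinephrine. The epinephrine samples lay close together above all controls, of which control 1 was the highest. Slc2a1 rose with a log2 fold change of 0.55 (SE 0.10, 95% interval 0.32 to 0.78, edgeR FDR 0.0294), a 1.46-fold rise. The call held without control 1, where the log2 fold change was 0.65 (FDR 9.13e-10), and was lost without any of the other 5 samples, with FDR values of 0.12 and 0.1 without control 2 or 3 and 0.182, 0.189 and 0.156 without chronic epinephrine 1, 2 or 3. With all 6 samples the call was lost with limma on log2(FPKM + 0.1) (FDR 0.0502) and with the replicate number as a block (FDR 0.0759). The log2 fold change stayed between 0.48 and 0.65 in all these fits. An exon of Gm12868 on the other strand overlaps Slc2a1, 1.54% of its 50-base windows are shared with that gene, and the sources used here do not say whether counting used strand.

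The stretches of 250 bases before the start of Slc2a2, Slc2a1 and Slc16a1 are shown because these are the 3 genes that passed the test, one in the opposite direction to the others. The sequences come from RefSeq on GRCm38.p6, in which 7 of the 9 genes had an entry, and lie at chr3:28697653-28697902, chr4:119108495-119108744 and chr3:104638414-104638663, all on the plus strand. Capitals mark matches, on either strand, to 5 short motifs. The TATA box was searched as TATAAA. The GC box, known for binding factors of the Sp family, was searched as GGGCGG. The E-box, known for binding basic helix-loop-helix factors, was searched as CACGTG. The core of the cAMP response element, which lies downstream of adrenergic signalling, was searched as TGACG. The CCAAT box was searched by those letters.
Slc2a2: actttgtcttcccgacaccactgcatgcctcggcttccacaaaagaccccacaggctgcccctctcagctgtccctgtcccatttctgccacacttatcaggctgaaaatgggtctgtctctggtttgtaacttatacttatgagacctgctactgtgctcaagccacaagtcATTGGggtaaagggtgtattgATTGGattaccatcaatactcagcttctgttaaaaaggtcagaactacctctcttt
Slc2a1: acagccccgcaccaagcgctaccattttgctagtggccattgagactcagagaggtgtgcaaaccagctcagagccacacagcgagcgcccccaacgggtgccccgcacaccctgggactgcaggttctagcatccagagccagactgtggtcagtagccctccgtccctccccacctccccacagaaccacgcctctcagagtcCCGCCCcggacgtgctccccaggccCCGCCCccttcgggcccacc
Slc16a1: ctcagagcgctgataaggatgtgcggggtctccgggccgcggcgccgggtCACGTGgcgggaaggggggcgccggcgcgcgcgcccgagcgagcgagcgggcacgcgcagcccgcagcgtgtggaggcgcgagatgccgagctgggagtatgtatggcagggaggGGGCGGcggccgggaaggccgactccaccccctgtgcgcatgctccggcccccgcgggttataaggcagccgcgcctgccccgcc
The Slc2a2 stretch held 2 CCAAT matches, both on the minus strand and starting 77 and 56 bases before the gene. That of Slc2a1 held 2 GC boxes, starting 45 and 20 bases before it. That of Slc16a1 held 1 E-box and 1 GC box. Among all 32851 promoter entries of the same length, 33.8% held CCAAT, 32.7% a GC box, 6.02% an E-box, 17.8% the cAMP response element core and 12.4% a TATA box. Matches to different motifs can share letters, and none did in these stretches. Positions are counted from the RefSeq start. A match describes only these letters, and the motifs were picked with the results known.

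The ratio of the 2 transporters was also taken within each sample. That of Slc2a2 to Slc2a1 in FPKM was 3.56, 4.31 and 3.73 in controls 1, 2 and 3 and 1.48, 1.5 and 1.52 in chronic epinephrine 1, 2 and 3. The groups did not overlap, and the 3 epinephrine samples were nearly identical. On the log2 scale the mean went from 1.95 ± 0.144 to 0.59 ± 0.018 (SD, n = 3), a difference of -1.36 (exact two-sided permutation p = 0.1, the smallest allowed). Over the 6 ratios compared between genes, the Benjamini-Hochberg adjusted exact p was 0.3 for this ratio, 0.4 for Ldha to Pcx and 1 for Abcc8 to Kcnj11 and for Ldha to Ldhb, and no ratio could have passed 0.05. Across the 12 GLUT genes in the table, Slc2a2 made up 57.5 to 60.6% of the summed FPKM in controls and 39.5 to 40.3% after epinephrine. The share of Slc2a1 was 14.1 to 16.3% and 26.0 to 26.8%. Shares within a family depend on each other, so the sum was also compared. It was 222, 201 and 191 FPKM in controls and 167, 171 and 171 FPKM after epinephrine, 17.1% lower on average (exact two-sided permutation p = 0.1, the smallest allowed). That average includes control 1, the highest sample. The FPKM of all genes summed to 475433 in control 1 and 541667 to 560478 in the other samples, and the GLUT sums were not adjusted for this. Slc2a5, the fructose transporter GLUT5, was at 35.5 ± 1.56 FPKM in controls and 37.2 ± 1.22 after epinephrine (SD, n = 3). Slc2a5 lay above Slc2a1 in every control sample and below it in every epinephrine sample. Slc2a6, which encodes GLUT6, a transporter of intracellular membranes, rose from 4.94 ± 0.552 to 10.1 ± 1.65 CPM, a log2 fold change of 1.03 (SE 0.17, edgeR FDR 0.0161). It had 76 to 88 counts in controls and 139 to 204 after epinephrine, and its FDR was 0.0849 without control 2, 0.108 without chronic epinephrine 2 and 0.105 without chronic epinephrine 3. Of the 14 hexose transporters listed, 10 were tested, of which 2 rose and 1 fell, with a median log2 fold change of 0.05 (0.10 without control 1) against 0.00 over all genes. The count was 3 in edgeR, where 2.63% of all genes passed, 3 with DESeq2, where 5.23% did, and 3 without control 1, where 21.6% did.

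**Figure D2:**
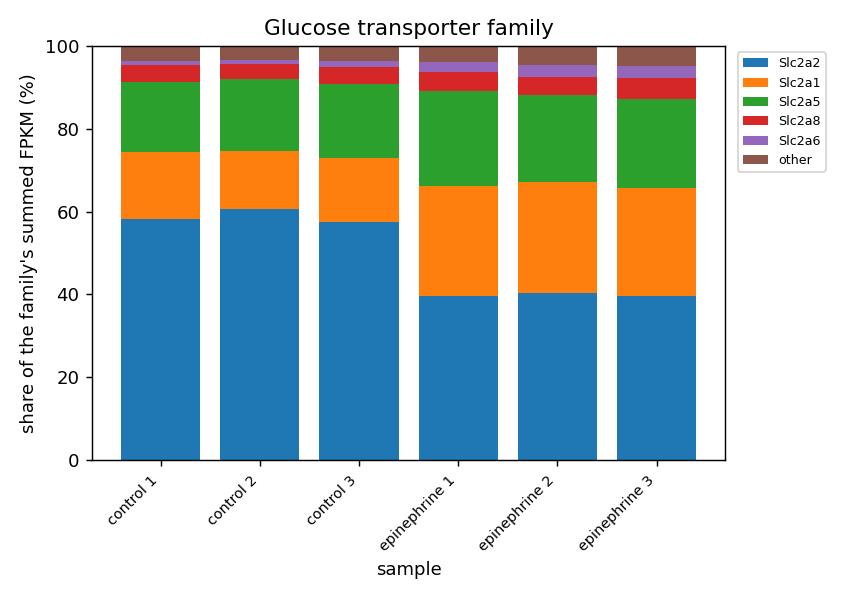
Share of the summed FPKM (vertical axis, percent) that each gene held within the glucose transporter family, with a stacked bar for each of the 6 samples. The share of Slc2a2 was 57.5 to 60.6% in controls and 39.5 to 40.3% after epinephrine.

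Hk1 encodes hexokinase 1, an enzyme of high affinity that phosphorylates glucose and is inhibited by its product. It (ENSMUSG00000037012, chromosome 10 from 62268855 to 62379908, minus strand) was at 13.7, 8.17 and 9.13 CPM in the controls. It was at 18.4, 13.3 and 15.2 CPM after epinephrine. Control 1 lay above chronic epinephrine 2, so the groups overlapped. Its log2 fold change was 0.60 (SE 0.21, 95% interval 0.13 to 1.07, unadjusted p = 0.0177, edgeR FDR 0.184) and did not pass. Without control 1 it was 0.86 (edgeR FDR 1.48e-05), in a fit where 21.6% of all genes passed. Hk1 was covered by 143 to 310 counts per sample, the fewest of the 9 genes, and shares 1.22% of its 50-base windows with Hk1os on the other strand.

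Among the other hexokinases, Hk2 had 11 to 25 counts per sample, and Hk3 had at most 1.

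G6pc2 encodes the islet glucose-6-phosphatase, which hydrolyses glucose-6-phosphate and so opposes the phosphorylation of glucose. It (ENSMUSG00000005232) lies on chromosome 2 from 69211073 to 69227841 on the plus strand. Its level was 3870, 5076 and 4972 CPM in controls 1, 2 and 3. It was 4216, 4203 and 4130 CPM in the epinephrine samples, which lay between control 1 and the other controls and within 0.03 of each other on the log2 scale. Its log2 fold change was -0.15 (SE 0.12, 95% interval -0.41 to 0.11, edgeR FDR 0.556). Without control 1 it was -0.27 (edgeR FDR 6.4e-05), and over all other alternatives it was not called. The liver paralog G6pc had at most 1 count in any sample. Of the 11 listed hexokinase and glucose-6-phosphatase genes, 7 were tested, and their log2 fold changes had a median of 0.14, or 0.22 without control 1. None passed in edgeR or DESeq2, 3 had an unadjusted p under 0.05 (17.1% of all genes), and 4 passed in edgeR without control 1 (21.6% of all genes).

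The KATP channel is built from pore subunits (Kcnj11) and regulatory sulfonylurea receptor subunits (Abcc8), the target of the sulfonylurea drugs. Both genes lie on the minus strand of chromosome 7, Kcnj11 (ENSMUSG00000096146) from 46093953 to 46100764 and Abcc8 (ENSMUSG00000040136) from 46104523 to 46180033, with 3758 bases between them. Kcnj11 was at 137, 110 and 117 CPM in controls and 115, 109 and 110 CPM after epinephrine. The ranges overlapped, and the log2 fold change was -0.12 (SE 0.10, 95% interval -0.35 to 0.11, edgeR FDR 0.578). With a sample left out it lay between -0.20 and -0.03.

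Abcc8 was at 884, 535 and 536 CPM in controls 1, 2 and 3. It was at 628, 587 and 627 CPM after epinephrine. The epinephrine samples lay above controls 2 and 3 and below control 1. In the test its log2 fold change was -0.09 (SE 0.19, 95% interval -0.51 to 0.34, edgeR FDR 0.852). Without control 1 it turned to 0.20 (edgeR FDR 0.00382), so the direction of Abcc8 rests on that library. The ratio of Abcc8 to Kcnj11 in FPKM was 3.93, 3.25 and 3.09 in controls and 3.08, 3.63 and 3.83 after epinephrine. These values overlapped, and the log2 difference was 0.04 with SDs of 0.183 and 0.164 (exact two-sided permutation p = 1). The paralogs of the vascular channel, Kcnj8 and Abcc9, had at most 2 and 3 counts per sample. Of 4 channel genes listed, the 2 tested did not pass in edgeR or DESeq2 and had 0 unadjusted p-values under 0.05, and 1 passed without control 1 (21.6% of all genes).

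Slc16a1 encodes MCT1, a proton-linked carrier of pyruvate and lactate that is normally silenced in β-cells. It (ENSMUSG00000032902) lies on chromosome 3 from 104638668 to 104658462 on the plus strand. Its level was 19.0, 24.4 and 25.6 CPM in controls and 37.5, 33.4 and 35.0 CPM after epinephrine. All epinephrine samples lay above all controls, of which control 1 was the lowest. The log2 fold change was 0.62 (SE 0.13, 95% interval 0.33 to 0.90, edgeR FDR 0.0421), a 1.53-fold rise at 293 to 633 counts per sample. The call was close to the threshold. With all 6 samples it was lost with upper quartile scaling (FDR 0.0536), both limma fits (FDR 0.0729 and 0.0727) and the replicate block (FDR 0.106). It held with DESeq2 (FDR 0.00179) and without control 1 (log2 fold change 0.50, FDR 4.2e-05), and it was lost without any of the other 5 samples, at FDR values of 0.107 and 0.0653 without control 2 or 3 and 0.245, 0.162 and 0.185 without chronic epinephrine 1, 2 or 3. The direction was the same in all 15 alternative fits.

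Ldha encodes the muscle-type subunit of lactate dehydrogenase, which converts pyruvate to lactate. It (ENSMUSG00000063229) lies on chromosome 7 from 46841475 to 46855627 on the plus strand and shares 9.26% of its 50-base windows with other annotated transcripts, among them its pseudogene Ldha-ps2. Its level was 795, 966 and 993 CPM in controls and 999, 1014 and 1029 CPM after epinephrine. In CPM the groups did not overlap, but control 3 and chronic epinephrine 1 were almost equal. In FPKM they overlapped, with 634 in control 3 and 629 in chronic epinephrine 1. The test gave a log2 fold change of 0.14 (SE 0.10, 95% interval -0.09 to 0.38, edgeR FDR 0.518), and 0.05 without control 1. Ldha was at 588 FPKM in controls, and its partner Ldhb, the heart-type subunit, at 2.99 ± 0.081 FPKM (SD, n = 3). Ldhb was at 3.45 ± 0.541 FPKM after epinephrine, and the ratio of Ldha to Ldhb lay between 177 and 206 in controls and between 165 and 228 after epinephrine (exact two-sided permutation p = 0.9). Ldhb shares 21% of its 50-base windows with Gm5514.

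Among the 10 listed lactate dehydrogenases and monocarboxylate transporters, 8 were tested and Slc16a1 was the 1 that passed in edgeR (2.63% of all genes) and in DESeq2 (5.23%). An unadjusted p under 0.05 was reached by 3 of the 8 (17.1% of all genes), 2 higher and 1 lower, and 3 passed in edgeR without control 1 (21.6%). The log2 fold changes of the 8 had a median of 0.15, or 0.08 if control 1 was left out. Bsg, the chaperone of MCT1 at the membrane, was the most abundant at 1150 ± 119 FPKM in controls and 1305 ± 37.7 after epinephrine (log2 fold change 0.21, SE 0.10, edgeR FDR 0.355), and its log2 fold change was 0.12 without control 1 (edgeR FDR 0.0913). Of 14 genes listed as disallowed in β-cells, 11 were tested. Their median log2 fold change was 0.43 against 0.00 over all genes tested, 8 had an unadjusted p under 0.05 (7 higher and 1 lower, where 17.1% of all genes did), and 1 passed the FDR in edgeR (2.63% of all genes), 3 in DESeq2 (5.23%) and 5 without control 1 (21.6%). Mgst1, too low to be tested in edgeR, passed in DESeq2 as lower, with 4, 5 and 25 counts in controls 1, 2 and 3, the same order as for Alb, and 0 in every epinephrine sample. The median was 0.31 without control 1. The list was chosen with earlier results of these data known, so its median and counts describe these genes and are no separate test of them. Ldha, Slc16a1 and Hk1 belong to that list themselves, and its other genes were mostly low, such as the chemokine Cxcl12 at 0.733 ± 0.175 in controls and 1.56 ± 0.305 after epinephrine.

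Pcx encodes pyruvate carboxylase, which makes oxaloacetate from pyruvate in mitochondria. It (ENSMUSG00000024892) lies on chromosome 19 from 4510472 to 4621752 on the plus strand. Its level was 246, 163 and 181 CPM in controls and 171, 160 and 172 CPM after epinephrine. Control 1 alone lay well above the rest, and the epinephrine samples fell within the range of controls 2 and 3 except chronic epinephrine 2, which was slightly below it. In the test its log2 fold change was -0.23 (SE 0.15, 95% interval -0.57 to 0.10, edgeR FDR 0.469), and -0.04 without control 1. The ratio of Ldha to Pcx in FPKM was 8.25, 15.3 and 14.3 in controls and 14.9, 17.1 and 15.7 after epinephrine, which overlapped (log2 difference 0.38, exact two-sided permutation p = 0.2). It was 0.10 without control 1.

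**Figure D3:**
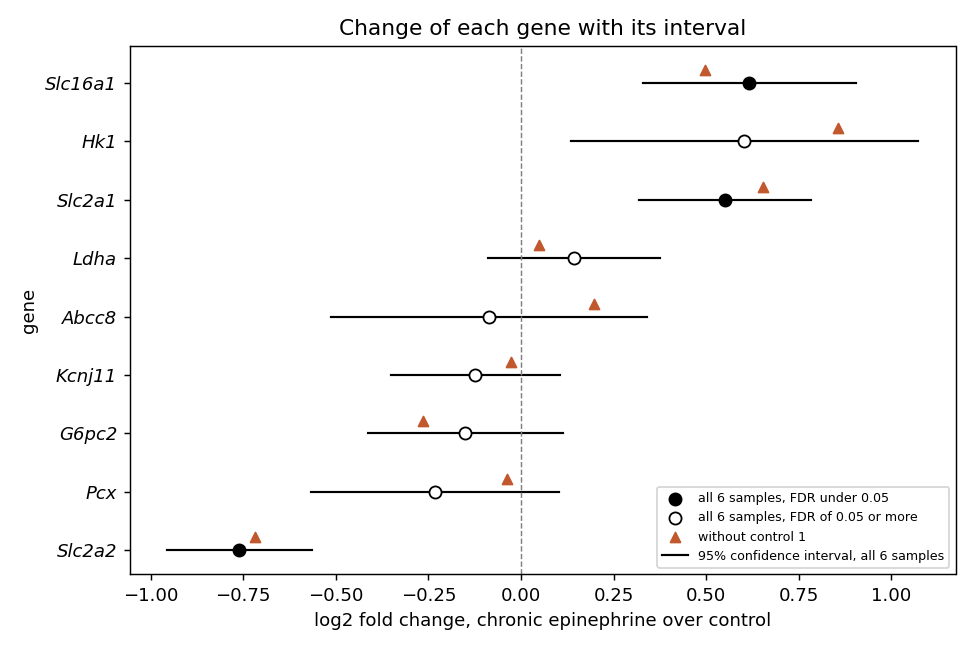
Log2 fold change of chronic epinephrine over control (horizontal axis) for each of the 9 genes, with circles and 95% confidence intervals from all 6 samples (filled where the FDR was under 0.05) and triangles for the fit without control 1. Slc2a2 lay at -0.76, Slc2a1 at 0.55 and Slc16a1 at 0.62, and the triangle of Abcc8 lay on the other side of 0 from its circle.

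Control 1 differed from controls 2 and 3 in opposite directions for different genes. It was higher by 0.72 on the log2 scale for Abcc8, 0.65 for Hk1, 0.52 for Pcx, 0.29 for Slc2a1, 0.27 for Kcnj11 and 0.12 for Slc2a2. It was lower for Slc16a1, G6pc2 and Ldha, at -0.40, -0.38 and -0.30. The spread between controls 2 and 3 was at most 0.16 for any of the 9 genes, and the part of RNA quality or handling in this difference was not tested. Without control 1, 6 of the 9 genes passed an FDR of 0.05 in edgeR, Hk1, Slc2a1, Slc16a1 and Abcc8 as higher and Slc2a2 and G6pc2 as lower, where 21.6% of all genes passed. Slc2a2 alone passed without control 2 and without control 3, where 0.839% and 1.48% of all genes passed. Without chronic epinephrine 1, 2 or 3, none of the 9 passed, where 0.364%, 0.364% and 0.593% of all genes passed.

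The count of 3 was the same with other size factors (2.57% of all genes passed), with library size only (2.47%), with DESeq2 (5.23%), without a filter (2.03%) and with at least 10 counts required in every sample (2.69%). It was 2 with upper quartile scaling (2.57%) and with limma on log2(FPKM + 1) (2.06%). It was 1 with limma on log2(FPKM + 0.1) (2.03%) and with the replicate number as a block (1.4%).

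**Figure D4:**
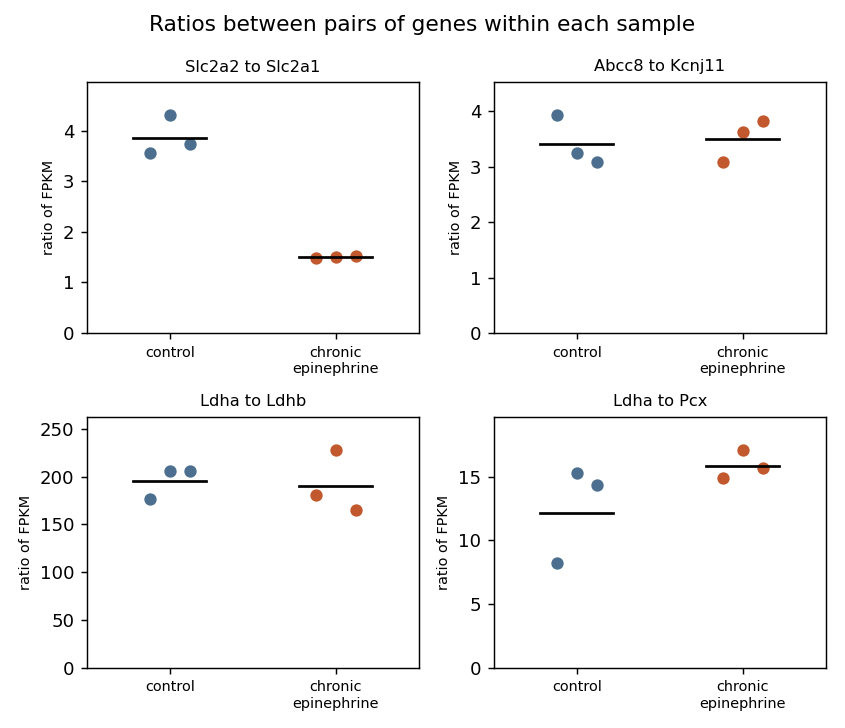
Ratio of the FPKM values of 4 pairs of genes (vertical axis, from 0) in control and chronic epinephrine samples, with replicates 1 to 3 from left to right in each group and the geometric mean as a bar. The groups separated for Slc2a2 to Slc2a1 (3.56 to 4.31 against 1.48 to 1.52) and overlapped for the other pairs.

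Of 22 glycolysis genes, 21 were tested, 10 higher and 11 lower, with a median log2 fold change of -0.01, and 0.06 without control 1. None of them passed in edgeR, 4 had an unadjusted p under 0.05 (17.1% of all genes did), 1 passed in DESeq2 (5.23% of all genes) and 8 passed in edgeR without control 1 (21.6% of all genes). Aldoc, the brain-type aldolase, had the smallest p, with 118, 102 and 99.8 CPM in controls and 81.3, 78.6 and 82.3 CPM after epinephrine (log2 fold change -0.40, SE 0.09, edgeR FDR 0.0652, DESeq2 FDR 0.00612). Gapdh was the most abundant at 2616 ± 123 and 2960 ± 94.9 FPKM (SD, n = 3), with a log2 fold change of 0.20 (edgeR FDR 0.262). Without control 1 the log2 fold change was 0.205 for Gapdh (edgeR FDR 0.00275) and -0.32 for Aldoc (edgeR FDR 9.37e-05).

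Of 26 genes of pyruvate entry and cycling, 24 were tested, 17 higher and 7 lower, with a median of 0.05. None passed in edgeR, 3 had an unadjusted p under 0.05 (17.1% of all genes), 2 passed in DESeq2 (5.23%) and 7 in edgeR without control 1 (21.6%), 3 as higher and 4 as lower. Pck1, which was too low to be tested with all samples, also passed without control 1. It is one of the hepatocyte markers and had 0, 14 and 29 counts in controls 1, 2 and 3 and at most 2 after epinephrine, an order among the controls that Alb shared. Pck2, the mitochondrial phosphoenolpyruvate carboxykinase, had the smallest p of them, with 98.1, 76.6 and 83.6 CPM in controls and 128, 110 and 116 CPM after epinephrine. Its log2 fold change was 0.46 (SE 0.11, edgeR FDR 0.0803, DESeq2 FDR 0.0174). Acly, which cleaves exported citrate, was the most abundant at 896 ± 231 and 676 ± 20.7 FPKM (SD, n = 3), with a log2 fold change of -0.36 (edgeR FDR 0.279) and control 1 the highest sample. Leaving out control 1 gave -0.15 for Acly (edgeR FDR 0.0228) and 0.56 for Pck2 (edgeR FDR 2.17e-07).

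Of 7 genes of the NADH shuttles, 6 were tested, with a median of 0.10, and 0.15 without control 1. None passed in edgeR, 3 had an unadjusted p under 0.05 (17.1% of all genes), 1 passed in DESeq2 (5.23%) and 4 in edgeR without control 1 (21.6%). Gpd2, the mitochondrial glycerol-3-phosphate dehydrogenase, was at 376, 298 and 296 CPM in controls and 255, 249 and 236 CPM after epinephrine (log2 fold change -0.39, SE 0.11, edgeR FDR 0.114, DESeq2 FDR 0.0316). Got2, the mitochondrial aspartate aminotransferase, was the most abundant of them at 73.5 ± 12.5 and 76.9 ± 2.96 FPKM (log2 fold change 0.095, edgeR FDR 0.723). In the fit without control 1 the log2 fold change was 0.23 for Got2 (edgeR FDR 0.00227) and -0.27 for Gpd2 (edgeR FDR 0.000237).

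**Figure D5:**
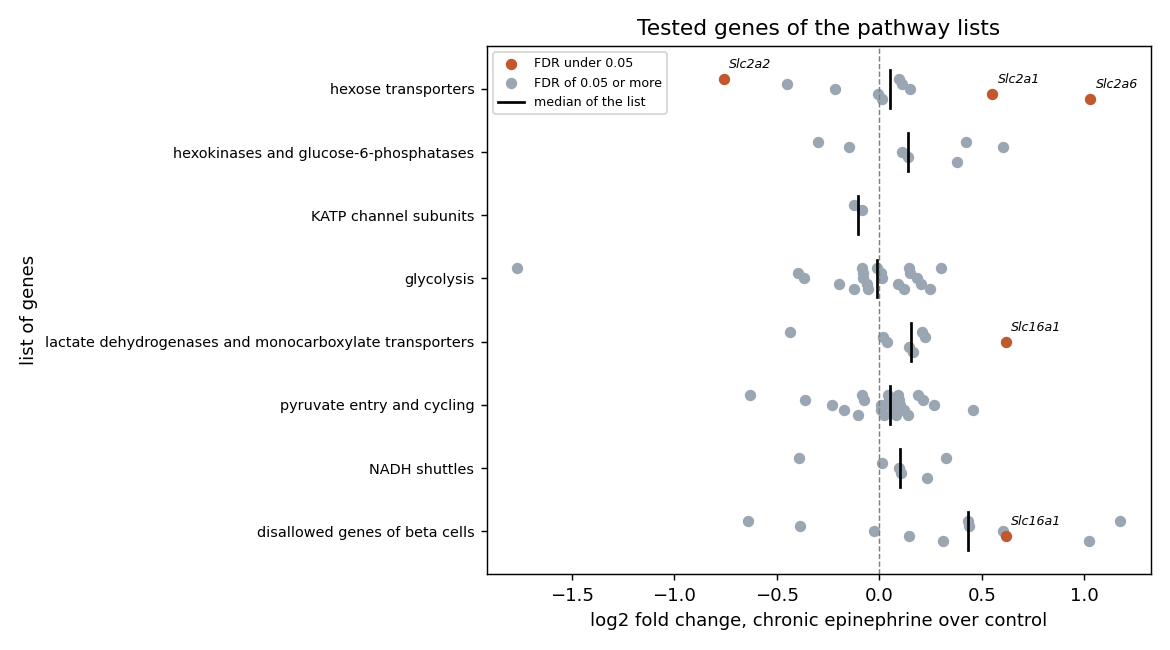
Log2 fold change of chronic epinephrine over control (horizontal axis) for the tested genes of 8 lists (vertical axis), with a point per gene, orange where the FDR was under 0.05, and a black bar at the median of each list. The genes past the threshold were Slc2a2, Slc2a1, Slc2a6 and Slc16a1, the last in 2 lists.

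The genes whose pattern over the 6 samples was most like that of Slc2a2 and Slc2a1, the members with the smallest p-values, were sought among 10818 others with a mean of at least 5 CPM. For Slc2a2 they were Lix1l, Hnrnph3 and Sod2, the mitochondrial superoxide dismutase, with Pearson's r of log2 CPM of 0.998, 0.995 and 0.994. For Slc2a1 they were Adam23, Hmox1, the inducible heme oxygenase, and Tmem214, with r of 0.995, 0.995 and 0.994. These r values describe 6 libraries that fall into 2 groups, and a gene that separates the groups evenly has a high r for that reason. The direction of these genes followed from that choice on the same libraries. Their test results therefore describe them and add no separate support. Lix1l fell with a log2 fold change of -0.61 (SE 0.08, edgeR FDR 0.00853) and Hmox1 rose with 0.98 (SE 0.13, edgeR FDR 0.00854). Both kept the call without any single control and lost it without chronic epinephrine 1, 2 or 3, at FDR values of 0.0748 to 0.083 for Lix1l and 0.0563 to 0.0753 for Hmox1. The other 4 genes did not pass, at FDR values of 0.0749 to 0.107 in edgeR. Hnrnph3 had a log2 fold change of -0.28 and Sod2 of -0.27, and Adam23 and Tmem214 were at 0.32 and 0.38. Without control 1 all 4 passed in edgeR, at FDR values of 9.84e-07 to 0.00229, where 21.6% of all genes passed. Their log2 fold changes in that fit were -0.28, -0.26, 0.37 and 0.45 in that order.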

How the data were processed

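RNA of MIN6 cells was sequenced on an Illumina NovaSeq instrument in 3 control and 3 chronic epinephrine samples. The deposited table gives an expected count per gene and sample, which the authors did not normalize between samples, and FPKM values, which the authors scaled to transcript length and sample total. The submitters' processing notes name the build GRCm38, and the aligner and counting tool are not given in the sources used here. Of the expected counts 8.34% were not whole, and all were rounded. Genes kept by filterByExpr were scaled by TMM. The groups were compared in R 4.3.3 with the edgeR 4.0.16 quasi-likelihood test, and the FDR was computed over all genes tested. SE is the size of the log2 fold change divided by the square root of F, and intervals use the t distribution. The fit was tested on simulated data. CPM values are TMM-normalized. A count of 0 allows up to 3 counts, and intervals cover the spread between samples, which nothing in the labels says were separate cultures.

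The members and gene lists were chosen with earlier results of these data known. Named genes are the members, list genes past the FDR, the gene of smallest p and the most abundant gene of each list, partners in the ratios, and the 3 genes most alike in pattern; Slc2a5, Cxcl12, Hk2, Ins1, Ins2, Iapp, Ucn3, Alb, Cd68, Rbp4, Sst, Mgst1, Pck1 and genes at or near 0 were named after their values were seen. Alternatives were DESeq2 1.42.0 and its size factors, upper quartile scaling, library size only, limma 3.58.1 on log2(FPKM + 1) or log2(FPKM + 0.1), no filter, a block for the replicate number, a minimum of 10 counts in all samples, and leaving out each sample. Deviations of samples with the same number correlated at 0.0502, 0.0677 and -0.0488 across genes, so the numbers were not treated as pairs. Some genes of the lists are not reported here. Positions and 50-base windows come from GENCODE mouse release 21 on GRCm38, which holds 22255 of the 22298 identifiers.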

Additional observations from a re-analysis of the deposited data

How the results depend on the processing

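The direction was the same in all 15 alternative fits for each of the 9 genes except Abcc8, whose log2 fold change was 0.20 without control 1. The number of the 9 genes that passed was 3, and it was 1 with limma on log2(FPKM + 0.1) and 1 with the replicate block. With each sample left out it ran from 0 to 6. The pathway genes that passed numbered 4 of 86 tested, 11 with DESeq2 (10 of them among the 86), 2 with limma on log2(FPKM + 0.1), 2 with the replicate block and 0 to 34 with a sample left out, where 33 of the 34 were among the 86. Over all genes 335 passed, 734 with DESeq2, 178 with the replicate block and 47 to 2798 with a sample left out.

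Slc2a2 passed in all 9 fits on the 6 samples. Slc2a1 did not pass with limma on log2(FPKM + 0.1) (log2 fold change 0.53, FDR 0.0502) or with the replicate block (0.56, FDR 0.0759), where the samples shared only a number. Slc16a1 did not pass with upper quartile scaling (0.61, FDR 0.0536), limma on log2(FPKM + 1) (0.52, FDR 0.0729), limma on log2(FPKM + 0.1) (0.59, FDR 0.0727) or the replicate block (0.63, FDR 0.106). With each sample left out the log2 fold change ran from -0.81 to -0.72 for Slc2a2, 0.48 to 0.65 for Slc2a1, 0.50 to 0.70 for Slc16a1, 0.45 to 0.86 for Hk1, -0.265 to -0.087 for G6pc2, -0.20 to -0.03 for Kcnj11, 0.05 to 0.20 for Ldha, -0.36 to -0.04 for Pcx and -0.22 to 0.20 for Abcc8. The cause of these changes was not tested. Hk1 had the fewest counts of the 9 genes, 143 to 310, and its SE was 0.205 with all samples and 0.129 without control 1.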
